A study of Mus musculus with 6 samples.

Results

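The genes described are 10 S100 members of the 46078 genes in the count tables, chosen by their symbols: *S100a1*, *S100a4*, *S100a6*, *S100a8*, *S100a9*, *S100a10*, *S100a11*, *S100a13*, *S100a16*, and *S100b*. They were compared between 3 infarcts and 3 contralateral cortices of wild-type C57BL/6J mice, male by the study's methods and 3 months of age by the labels, at 7 weeks after stroke. Stroke was induced by permanent cautery of a middle cerebral artery followed by hypoxia, so both regions came from brains with a stroke and no uninjured mouse was included. The labels name no drug treatment for these libraries. Tissue was dissected by eye, and the labels do not say which infarct and which cortex shared a mouse or whether each library came from 1 mouse, so *p* values describe the spread between these libraries.

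The S100 genes encode small EF-hand proteins that bind calcium as dimers and pass the signal to partner proteins. Some members act inside cells on the cytoskeleton, annexins and enzymes, and others are also released and act on receptors such as RAGE and TLR4. In the brain the family is best known for *S100b*, a product of astrocytes and of some oligodendrocytes that is measured in blood as a sign of brain injury. The *S100a8* and *S100a9* products form calprotectin, an abundant protein of neutrophils and of some monocytes.

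Counts on genes ranged from 12146959 to 13427057 in infarcts and from 11943570 to 19933962 in contralateral cortices. Levels are given as CPM, counts scaled to library size with TMM (trimmed mean of M values), with mean ± SD over 3 libraries. A gene was called higher or lower if it changed more than 2-fold with an adjusted *p* under 0.05 in edgeR's quasi-likelihood test, fitted over all 15554 genes that passed a filter on low counts. With libraries scaled by their totals in place of TMM, the median log2 fold change of all tested genes shifted by 0.20, so changes are relative to the TMM scale. The labelled regions had distinct marker levels. All 8 neuronal markers were called lower in infarcts, beside 20.9% of all tested genes. All 8 fibroblast and all 8 macrophage and microglia markers were called higher, beside 25.7% of all tested genes. Of these, *Ms4a7* passed the filter only through its infarct counts and so had to differ in that direction.

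Most S100 genes were expressed at higher levels in infarcts. Summed over the 10 genes, the level was 908, 951 and 954 CPM in infarcts 1, 2 and 3 and 377, 533 and 386 CPM in contralateral cortices 1, 2 and 3, so the regions did not overlap. Of the 10 members, 9 passed the filter and 7 were called higher, where 25.7% of all tested genes were called higher. None was called lower in edgeR or DESeq2, where 20.9% of all tested genes were called lower in edgeR, and all 9 fitted changes were above 0. In 9 of the 10 members every infarct value lay above every contralateral value, which was so for 37.6% of tested genes. The exception was *S100a16*. *S100a8*, *S100a9*, and *S100a11* passed the filter only through their infarct counts and so had to differ in that direction. The untested member was *S100a4*. With no filter on low counts, 8 of the 10 members were called higher, beside 17.3% of the 27012 genes then tested. The median log2 fold change of the 10 members was 1.64 with *S100a4* at the lowest change that its counts allow, and that of all tested genes was 0.03. In bulk tissue, a change in the number of cells of a type and a change in RNA per cell cannot be told apart.

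**Figure D1:**
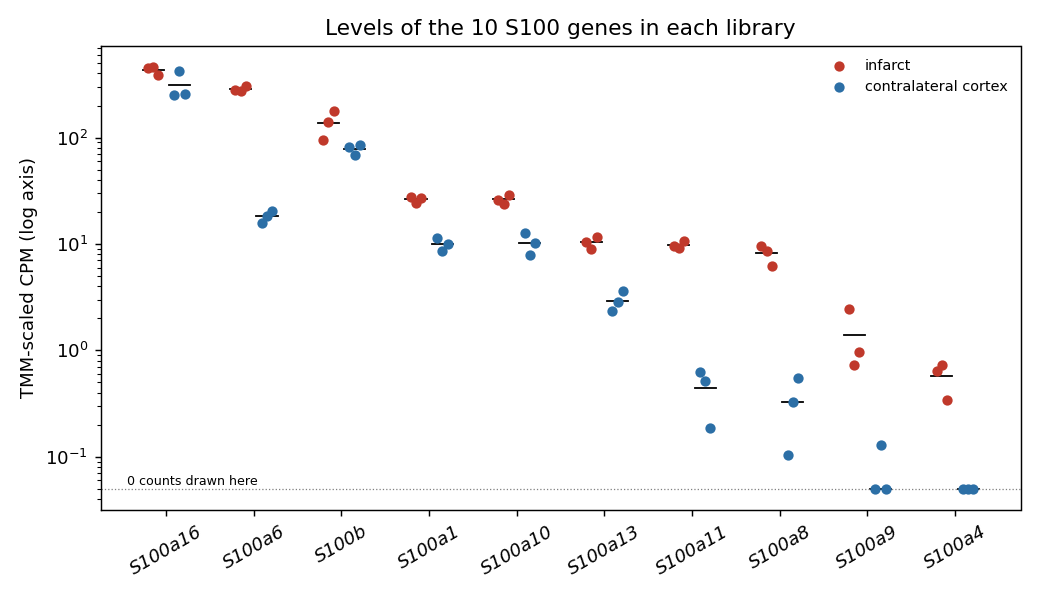
TMM-scaled CPM of each S100 gene (log axis) in 3 infarct and 3 contralateral libraries, with points for libraries and short lines for means, and with 0 counts drawn on the dotted line. The infarct points lie above the contralateral points for every gene except *S100a16*, whose contralateral cortex 2 reached 426 CPM.

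The make-up of the S100 signal differed between regions. *S100a16* accounted for 71.0% ± 7.77 (SD, n = 3) of the summed CPM in contralateral cortices and 45.9% ± 4.8 (SD, n = 3) in infarcts. *S100b* accounted for 18.8% ± 5.27 and 14.6% ± 4.13 (SD, n = 3 each), shares whose ranges overlapped. *S100a6* accounted for 4.33% ± 0.95 in contralateral cortices and 30.6% ± 1.66 in infarcts (SD, n = 3 each), without overlap. These shares were not tested and are of counts that were not divided by gene length.

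**Figure D2:**
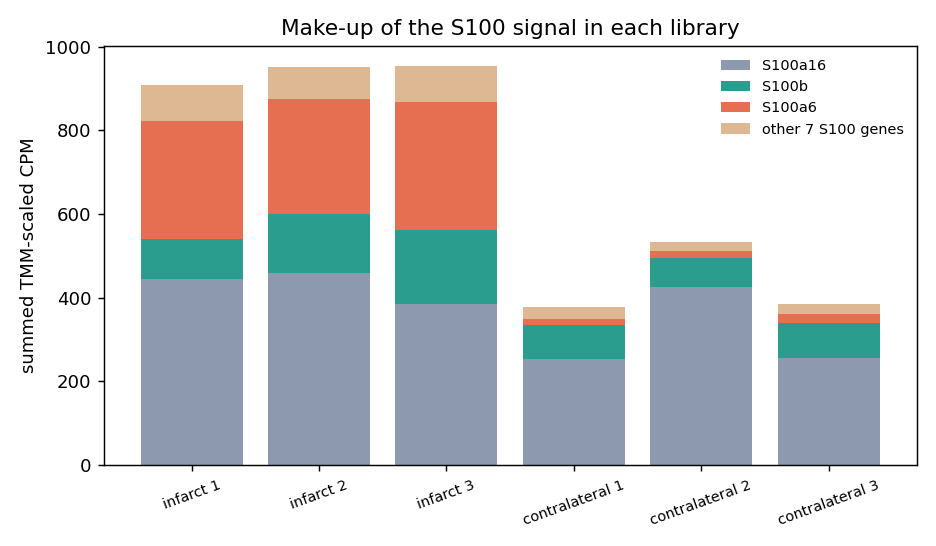
Summed TMM-scaled CPM of the 10 S100 genes in each of the 6 libraries, stacked by gene. The *S100a6* segment is 274 to 305 CPM in infarcts and 15.9 to 20.6 CPM in contralateral cortices, while *S100a16* is the tallest segment in every library.

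*S100a8* (ENSMUSG00000056054, GRCm38 chromosome 3, 90668978 to 90670035) and *S100a9* (ENSMUSG00000056071, chromosome 3, 90692632 to 90695721) encode the subunits of calprotectin, which binds zinc and manganese as well as calcium and is released as an alarm signal. They lie on opposite strands, 22596 bases apart. *S100a8* was counted 120, 118 and 91 times in infarcts 1, 2 and 3 and 2, 5 and 6 times in contralateral cortices 1, 2 and 3. Its level was 8.14 ± 1.73 CPM in infarcts, compared with 0.328 ± 0.225 CPM in contralateral cortices, which gave a log2 fold change of 4.74 (edgeR, standard error [SE] 0.46, adjusted *p* = 1.46e-05). All infarcts were thus well above all contralateral cortices, although the contralateral level rested on a few counts. *S100a9* was counted 31, 10 and 14 times in infarcts 1, 2 and 3 and 0, 2 and 0 times in contralateral cortices 1, 2 and 3. Infarct 1 stood above the other infarcts, while the contralateral level was at the limit of counting. Over the summed counts the infarct level of *S100a9* was 30.5 times the contralateral level, with an exact 95% interval of 8.06 to 259 that covers counting error only, and the gene was called higher (adjusted *p* = 0.0017, edgeR). Its fitted log2 fold change of 4.71 was 7.29 without contralateral cortex 2, 4.04 without infarct 1 and 4.03 without contralateral cortex 1, and it stayed called in each case.

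Per kilobase of exon, *S100a8* was counted 2.91, 8.88 and 4.89 times as much as *S100a9* in infarcts 1, 2 and 3. Of 12 neutrophil markers, 6 passed the filter on low counts and all 6 were called higher in infarcts, beside 25.7% of all tested genes. Apart from *Csf3r*, these passed only through their infarct counts and so had to differ in that direction. The summed level of the 12 genes was 75, 73.4 and 63.2 CPM in infarcts 1, 2 and 3 and 4.70 to 6.09 CPM in contralateral cortices. Most of it was *Csf3r*, at 49.0 ± 4.41 CPM in infarcts, a cytokine receptor gene that macrophages and microglia also express. The other markers ranged from absent to levels like that of *S100a8*. *Elane* had 0 counts in every library, *Ly6g* was counted 0, 2 and 0 times in infarcts 1, 2 and 3, and *Mpo* 4, 1 and 10 times. The granule gene *Ngp* was counted 13, 38 and 18 times there and *Cxcr2*, a chemokine receptor gene of neutrophils, 69, 43 and 39 times. *Mmp8*, encoding neutrophil collagenase, was counted 124, 154 and 127 times in infarcts and 0, 1 and 0 times in contralateral cortices. The chemokine receptor gene *Cxcr1* was counted 36, 23 and 35 times in infarcts and in no contralateral cortex. The summed level of 8 macrophage and microglia markers was 9519, 8151 and 5922 CPM in infarcts 1, 2 and 3 and 167 to 222 CPM in contralateral cortices. The level of *S100a8* was 9.56, 8.66 and 6.21 CPM in infarcts 1, 2 and 3, and it and the summed neutrophil, macrophage and T cell markers were each highest in infarct 1 and lowest in infarct 3. *Csf3r* had that order too, at 53.7, 48.5 and 44.9 CPM, but the other neutrophil markers shared no order. *Ngp*, *Ltf*, *Camp*, and *Mmp8* were highest in infarct 2, *Cxcr2* and *Cxcr1* in infarct 1, and *Mpo* and *Retnlg* in infarct 3. *S100a9*, at 2.47, 0.734 and 0.956 CPM in infarcts 1, 2 and 3, was lowest in infarct 2. The part of any of these cells in the *S100a8* and *S100a9* levels was not tested.

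The promoter stretches of the genes that changed most, and of *S100b* for contrast, are shown to let their sequence be read beside the levels. They come from RefSeq windows on GRCm38.p6, of which 9 of the 10 members had one (*S100a10* had none), and each ends before the first annotated exon. Capitals mark matches on either strand to TTNNGNAA (TTNCNNAA when read on the other strand), a form of the C/EBP motif, to TGANTCA, the AP-1 motif, or to GGGCGG, the GC box. No printed match overlaps another. The stretches lie at chr3:90668821-90668977 (plus strand) for *S100a8*, at chr3:90695722-90695971 (minus strand) for *S100a9*, at chr3:90612644-90612881 (plus strand) for *S100a6*, at chr3:93520246-93520487 (plus strand) for *S100a11*, and at chr10:76253586-76253835 (plus strand) for *S100b*.
S100a8 upstream: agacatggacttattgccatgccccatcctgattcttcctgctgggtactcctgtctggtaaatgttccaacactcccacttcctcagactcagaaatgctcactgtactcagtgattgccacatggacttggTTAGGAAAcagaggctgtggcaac
S100a9 upstream: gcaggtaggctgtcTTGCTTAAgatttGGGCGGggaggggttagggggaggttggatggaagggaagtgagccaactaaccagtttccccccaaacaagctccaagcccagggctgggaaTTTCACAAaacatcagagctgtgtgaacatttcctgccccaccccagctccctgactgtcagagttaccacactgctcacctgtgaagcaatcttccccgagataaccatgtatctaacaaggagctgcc
S100a6 upstream: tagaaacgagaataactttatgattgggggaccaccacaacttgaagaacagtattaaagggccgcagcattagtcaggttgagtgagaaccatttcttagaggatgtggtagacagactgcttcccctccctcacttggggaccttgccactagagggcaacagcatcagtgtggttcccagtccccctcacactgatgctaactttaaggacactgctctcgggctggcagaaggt
S100a11 upstream: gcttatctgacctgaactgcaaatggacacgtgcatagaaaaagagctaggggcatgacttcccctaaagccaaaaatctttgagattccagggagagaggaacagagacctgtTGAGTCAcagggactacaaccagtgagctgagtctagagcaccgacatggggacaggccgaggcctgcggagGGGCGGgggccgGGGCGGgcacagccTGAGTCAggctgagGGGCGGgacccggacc
S100b upstream: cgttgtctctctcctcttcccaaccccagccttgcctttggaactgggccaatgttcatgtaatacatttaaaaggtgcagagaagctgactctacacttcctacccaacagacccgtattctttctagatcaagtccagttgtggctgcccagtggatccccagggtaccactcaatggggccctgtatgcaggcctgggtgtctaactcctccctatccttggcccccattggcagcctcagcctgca

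Over the 250 bases before the start, the C/EBP form was found in *S100a8* (1 match) and *S100a9* (2 matches) and in none of the other 7 members with a window, taking the first window of each. It was found in 36.8% of the 32851 windows of that length in the table. The first base of the match lay 117 bases before the RefSeq start in *S100a8*, and 236 and 130 bases before it in *S100a9*. The AP-1 motif was found in *S100a11*, at 136 and 38 bases before the start, and in no other first window, with 6.75% of all windows holding it. The second window of *S100a16* also held an AP-1 match, 192 bases before its start, and a GC box, 30 bases before it. Among first windows, GC boxes were found in *S100a9* and *S100a11* (32.7% of all windows), and TATAAA in *S100a8* and *S100a4* (12.4% of all windows), at 30 and 31 bases before the start. The *S100a8* match to TATAAA lies beyond the printed stretch. *S100a6* and *S100b* had none of these 4 motifs. A match of letters is a description of the sequence and says nothing of factor binding in this tissue.

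*S100a6* (ENSMUSG00000001025, chromosome 3, 90612882 to 90624181), or calcyclin, is a gene of fibroblasts, ependymal cells and reactive astrocytes. It had the highest CPM of the 7 called members. Its level was 282, 274 and 305 CPM in infarcts 1, 2 and 3 and 15.9, 18.4 and 20.6 CPM in contralateral cortices 1, 2 and 3. The groups were far apart relative to the spread within each. The log2 fold change was 3.98 (edgeR, SE 0.16, adjusted *p* = 1.64e-07), or 15.7-fold. Fibroblast markers moved in the same direction, with a summed level of 7472 to 9291 CPM in infarcts and 190 to 237 CPM in contralateral cortices. All 4 ependymal markers tested were also called higher, beside 25.7% of all tested genes. Of these, *Ccdc153* and *Dynlrb2* passed the filter only through their infarct counts and so had to differ in that direction. The summed ependymal level was only 16.3 to 26.2 CPM in infarcts. The part of these cells in the *S100a6* level was not tested.

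*S100a11* (ENSMUSG00000027907, chromosome 3, 93520488 to 93526287) encodes a partner of annexin A1 and of other annexins. It was counted 121, 125 and 156 times in infarcts 1, 2 and 3 and 12, 8 and 2 times in contralateral cortices 1, 2 and 3. Its level was 9.82 ± 0.751 CPM in infarcts, compared with 0.444 ± 0.231 CPM in contralateral cortices. This was a log2 fold change of 4.35 (edgeR, SE 0.35, adjusted *p* = 4.31e-06), beside 3.98 for *S100a6* and 4.74 for *S100a8*. Of its 437 distinct 75-base windows, 165 (37.8%) also occur, base for base, in the transcripts of the pseudogenes *Gm12854* and *Gm7665*. A read pair that lies wholly in such sequence aligns to more than 1 place and is not counted, and how many pairs were lost was not tested. No window of the other members except *S100a4* was shared with another gene's transcripts.

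*S100a4* (ENSMUSG00000001020, chromosome 3, 90603771 to 90606045), known as fibroblast-specific protein or metastasin, acts on nonmuscle myosin and is expressed by fibroblasts and myeloid cells. It had only 8, 10 and 5 counts in infarcts 1, 2 and 3 and none in any contralateral cortex. Set against a floor of 3 counts in each contralateral library, it was at least 2.72-fold higher in infarcts. Without the filter its adjusted *p* was 5.69e-04 (edgeR). The gene model *Gm42674*, which runs from *S100a3* into *S100a4*, covers 51.7% of the exon bases of *S100a4* on the same strand, and 44.8% of the 75-base windows of *S100a4* are also found in it. *Gm42674* itself had 0 counts in all libraries. Reads that fall in exons of more than 1 gene are set aside as ambiguous by htseq-count, and how many reads of *S100a4* were set aside was not tested. Among the 7 other S100 genes of the annotation, *S100a3* also shares exon bases with *Gm42674*, at 2.54%.

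*S100a10* (ENSMUSG00000041959, chromosome 3, 93555080 to 93564643), or p11, is unusual in the family because it does not need calcium. It binds annexin A2 in a complex that takes up plasminogen at the cell surface and carries ion channels and serotonin receptors to the membrane. It had 26.0, 24.0 and 28.7 CPM in infarcts 1, 2 and 3 and 12.6, 7.81 and 10.2 CPM in contralateral cortices 1, 2 and 3. This was a log2 fold change of 1.36 (edgeR, SE 0.21, adjusted *p* = 2.78e-04), the smallest of the 7 called members. Its partner *Anxa2* had a log2 fold change of 4.47. Per kilobase of exon, *S100a10* stood at 3.17 ± 0.777 times *Anxa2* in contralateral cortices and at 0.370 ± 0.0698 times *Anxa2* in infarcts (SD, n = 3 each), so the more abundant of the pair was exchanged between regions.

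*S100a1* (ENSMUSG00000044080, chromosome 3, 90511034 to 90514392), best known from heart and skeletal muscle, where it acts on calcium cycling, and *S100a13* (ENSMUSG00000042312, chromosome 3, 90514435 to 90524581), which takes part in the release of FGF1, are transcribed away from each other from starts that GENCODE places 42 bases apart. These bases, which form the whole of the annotated gap at chr3:90514393-90514434 (plus strand), are shown because both genes were called higher.
S100a1 to S100a13: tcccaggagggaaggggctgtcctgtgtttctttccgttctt

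*S100a1* had 27.8, 24.5 and 27.2 CPM in infarcts 1, 2 and 3 and 11.4, 8.59 and 10.1 CPM in contralateral cortices 1, 2 and 3, which gave a log2 fold change of 1.40 (edgeR, SE 0.18, adjusted *p* = 8.03e-05). *S100a13* had 10.4, 9.03 and 11.7 CPM in infarcts and 2.35, 2.86 and 3.60 CPM in contralateral cortices, which gave a log2 fold change of 1.83 (edgeR, SE 0.25, adjusted *p* = 1.21e-04). Neither gene had an infarct value within the contralateral range. The ratio of *S100a1* to *S100a13* counts was 2.57 ± 0.221 in infarcts and 3.55 ± 1.13 in contralateral cortices (SD, n = 3 each), and the ranges overlapped. On the other side of *S100a1*, *Chtop*, a gene of mRNA export, had a log2 fold change of -0.20 with an adjusted *p* of 0.206 (edgeR).

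*S100a16* (ENSMUSG00000074457, chromosome 3, 90537254 to 90543151), a widely expressed member, had the highest level of the family in both regions. It had 446, 460 and 386 CPM in infarcts 1, 2 and 3 and 253, 426 and 255 CPM in contralateral cortices 1, 2 and 3. Contralateral cortex 2 lay within the infarct range. The log2 fold change of 0.47 (95% interval -0.03 to 0.96, adjusted *p* = 0.0869, edgeR) was not called, and the interval leaves out a 2-fold increase. Without contralateral cortex 2 it was 0.75 (adjusted *p* = 0.00725, edgeR), still under the fold change threshold.

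*S100b* (ENSMUSG00000033208), the sole member on chromosome 10 (76253853 to 76261159), had 94.1, 141 and 177 CPM in infarcts 1, 2 and 3 and 81.1, 68.0 and 85.8 CPM in contralateral cortices 1, 2 and 3. Infarct 1 was close to the contralateral range, and infarct 3 was furthest from it. The log2 fold change was 0.81 (95% interval 0.31 to 1.31, adjusted *p* = 0.00929, edgeR), a difference past the *p* threshold but under a 2-fold change. Without infarct 1 it was 1.04 (adjusted *p* = 2.01e-04, edgeR), which is called, and without infarct 3 it was 0.60. With library totals in place of TMM it was 1.02, also called.

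Other genes of astrocytes moved in both directions. For each count of *Gfap*, the intermediate filament gene of reactive astrocytes, there were 0.126 ± 0.0176 counts of *S100b* in infarcts and 2.07 ± 0.292 in contralateral cortices (SD, n = 3 each). For each count of *Aldh1l1*, a folate enzyme gene found across astrocytes, there were 2.85 ± 0.823 counts of *S100b* in infarcts and 1.18 ± 0.294 in contralateral cortices. *Aldh1l1* had a log2 fold change of -0.49, and *Slc1a2*, the main astrocyte glutamate transporter gene, one of -2.07. *Gja1*, encoding the gap junction protein connexin 43, had a log2 fold change of 0.59 (adjusted *p* = 0.00485, edgeR) and *Sox9*, an astrocyte transcription factor gene, one of 0.64 (adjusted *p* = 0.0131, edgeR), and both had every infarct above every contralateral value without being called, as had *S100b*. Of the 10 astrocyte markers, 2 were called higher and 2 lower, beside 25.7% and 20.9% of all tested genes, with a median log2 fold change of -0.33. These counts are near the shares of all genes, so they are no result about astrocyte genes as a group.

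By Pearson correlation of log2 CPM over the 6 libraries, the genes most like *S100b* included *Mal* (r = 0.990), which encodes a myelin membrane protein, *Gpc1* (r = 0.984), *Gm13293* (r = 0.982), and *Zfp608* (r = 0.982). Of the 15553 other tested genes, 212 had an r above 0.9. *Mal* had 156, 250 and 275 CPM in infarcts 1, 2 and 3, and 142, 117 and 137 CPM in contralateral cortices 1, 2 and 3. The summed level of 8 oligodendrocyte and myelin markers was 4267, 4985 and 6979 CPM in infarcts 1, 2 and 3 and 2257 to 2682 CPM in contralateral cortices. That of the 10 astrocyte markers was 5860, 6196 and 8572 CPM in infarcts 1, 2 and 3 and 14526 to 15401 CPM in contralateral cortices. Most of the contralateral astrocyte sum was *Slc1a2*, at 12297 ± 624 CPM there and 2933 ± 859 CPM in infarcts. The lower astrocyte sum in infarcts thus rests on this 1 gene, and the 10 markers moved in both directions. The summed level of the 8 neuronal markers was 688, 867 and 2004 CPM in infarcts 1, 2 and 3 and 9885 to 10957 CPM in contralateral cortices. All 3 sums were lowest in infarct 1 and highest in infarct 3, as was *S100b*. The part of these cells in the *S100b* level was not tested.

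**Figure D3:**
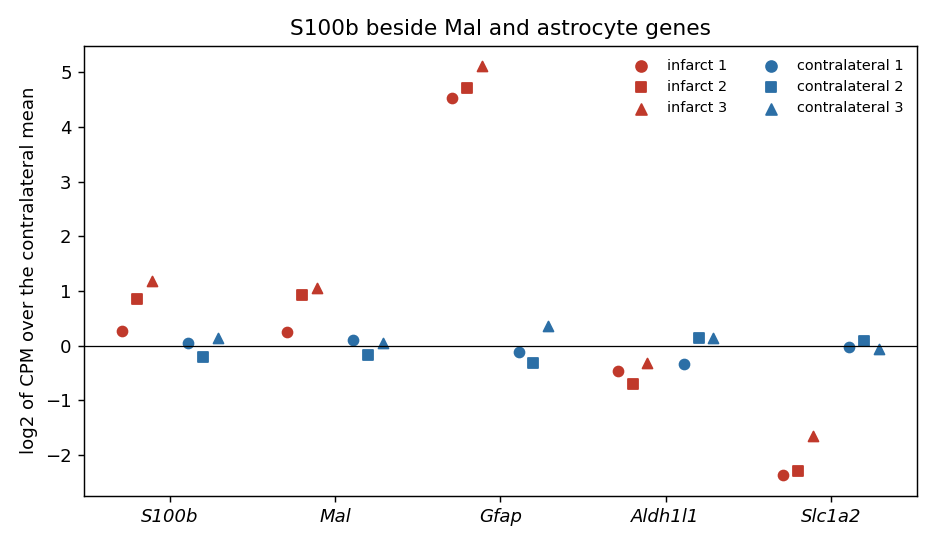
Log2 of CPM over the contralateral mean for *S100b*, the myelin gene *Mal* and the astrocyte genes *Gfap*, *Aldh1l1*, and *Slc1a2*, with 1 point per library and the marker shape giving its number. Among infarcts, *S100b*, *Mal*, *Gfap*, and *Slc1a2* are each lowest in infarct 1 and highest in infarct 3, and all *Gfap* points of infarcts lie far above 0 and all *Slc1a2* points of infarcts lie below it.

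For *S100a8* and *S100a9* the same measure was less specific, since 4323 and 2940 genes had an r above 0.9. The closest were *Ehd2*, *Mtfr1*, *Ticam2*, *Prkd2*, and *Eva1c* for *S100a8* (r = 0.999 for each), and *Tie1* (r = 0.998), *Myl6* (0.997), *Rfc2* (0.996), *Rack1* (0.996), and *Gart* (0.995) for *S100a9*. These correlations are over 3 libraries of each region.

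**Figure D4:**
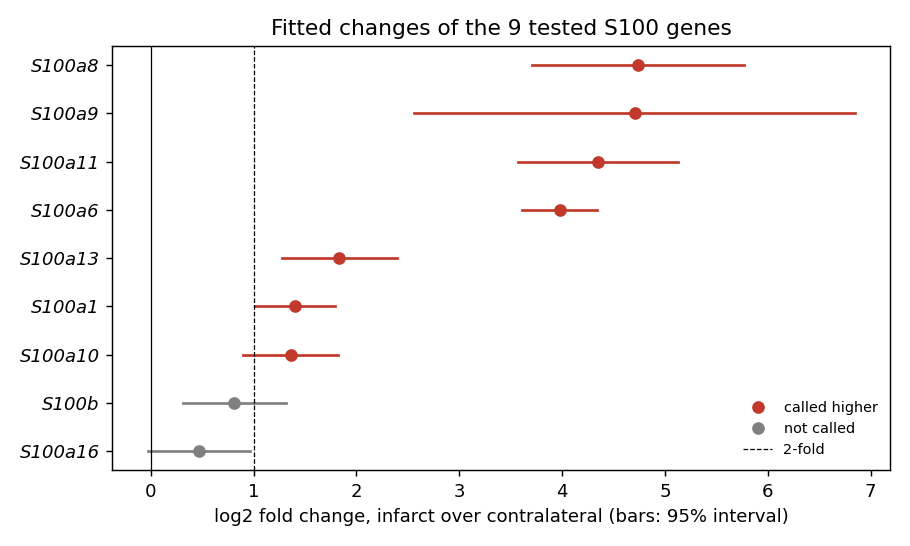
Fitted log2 fold change of infarct over contralateral cortex with its 95% interval for the 9 tested S100 genes, with the dashed line at a 2-fold change. *S100a6*, *S100a8*, *S100a9*, and *S100a11* lie at 3.98 to 4.74 (*S100a9* with 2 contralateral counts in all), *S100a1*, *S100a10*, and *S100a13* at 1.36 to 1.83, and *S100b* and *S100a16* below 1.

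Compared per kilobase of exon, the members ranked differently in the regions. In contralateral cortices the level was 192 ± 61.5 CPM per kilobase for *S100a16*, 52.8 ± 6.20 for *S100b*, 14.4 ± 2.01 for *S100a1*, 13.4 ± 1.72 for *S100a6*, 8.43 ± 1.97 for *S100a10* and 4.11 ± 0.878 for *S100a13* (SD, n = 3 each). *S100a11* at 0.869, *S100a8* at 0.473, *S100a9* at 0.0832 and *S100a4* at 0 CPM per kilobase followed. Neighbours whose library ranges overlapped were *S100a1* and *S100a6*, *S100a11* and *S100a8*, *S100a8* and *S100a9*, and *S100a9* and *S100a4*, so their order is not distinguished. In infarcts *S100a16* stood at 266 ± 24.4 CPM per kilobase, *S100a6* at 210.0 ± 11.9, *S100b* at 92.6 ± 28.2, *S100a1* at 38.1 ± 2.56, *S100a10* at 21.7 ± 1.92, *S100a11* at 19.2 ± 1.47, *S100a13* at 14.5 ± 1.89, *S100a8* at 11.7 ± 2.5, *S100a9* at 2.66 ± 1.81 and *S100a4* at 0.978 ± 0.351 (SD, n = 3 each). Here *S100a10* overlapped *S100a11*, and *S100a13* overlapped *S100a8*. *S100a6* ranked second in infarcts and stood at 2.41 ± 0.741 times *S100b* in infarcts against 0.255 ± 0.0404 times in contralateral cortices. The ranks of *S100a11* and *S100a4* rest on the reads that could be counted.

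The remaining S100 genes of the annotation were near the limit of counting. *S100a2*, *S100a5*, *S100g*, and *S100z* had 0 counts in every library. *S100a3* had infarct counts of 3, 6 and 6 against 5, 2 and 2 in contralateral cortices 1, 2 and 3. *S100a14* had infarct counts of 0, 5 and 3, and no contralateral library held any. *S100a7a*, an epithelial member, had infarct counts of 11, 12 and 11 and contralateral counts of 6, 7 and 0. Its log2 fold change of 1.55 (adjusted *p* = 0.065, edgeR) was not called. In the list of other S100 genes, which also held the binding protein gene *S100pbp*, *S100a7a* and *S100pbp* were the 2 genes tested and none was called by edgeR, with 1 at an unadjusted *p* under 0.05 and 1 called by voom. The S100 genes of chromosome 3 lie over 3054 kilobases between *S100a1* and *S100a10*, and 107 other genes lie among them, many of them genes of skin and hair. Of these, 92 had 0 counts in all 6 libraries and only 2 passed the filter. *Tchh*, which encodes the hair protein trichohyalin, had a log2 fold change of -1.64 (adjusted *p* = 0.00726, edgeR), and the pseudogene *Gm4202* one of -1.03 (adjusted *p* = 0.0134, edgeR). The genes nearest to a member, *Gm42674* and the pseudogene *Gm29950*, had 0 counts.

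Genes for receptors of released S100 proteins changed in both directions. *Tlr4*, which encodes a receptor for calprotectin, was counted 1598, 1635 and 1324 times in infarcts 1, 2 and 3 and 95, 95 and 69 times in contralateral cortices 1, 2 and 3, without overlap, and its log2 fold change was 4.27 (edgeR, SE 0.20, adjusted *p* = 2.49e-07). *Cd36*, a fatty acid receptor gene whose product takes up arachidonic acid carried by calprotectin, had 969 ± 124 CPM in infarcts, compared with 3.83 ± 0.743 CPM in contralateral cortices, and was also called higher. *Ager*, which encodes RAGE, was hardly counted, at 5, 7 and 8 counts for infarcts against 2, 1 and 0 for contralateral cortices. It did not pass the filter, and over the summed counts its level was 7.40 times as high in infarcts, with an exact 95% interval of 2.20 to 38.9 for counting error. *Nptn*, which encodes neuroplastin, a synaptic adhesion protein and S100A8 receptor, had 284 ± 37.8 CPM in infarcts, compared with 677 ± 110 CPM in contralateral cortices, which gave a log2 fold change of -1.25 (edgeR, SE 0.18, adjusted *p* = 1.97e-04). *Bsg*, the gene of the S100A9 receptor basigin, had a log2 fold change of 0.23 (95% interval -0.17 to 0.63, adjusted *p* = 0.285, edgeR) and was not called. Of the 5 receptors, 4 were tested, with 2 called higher and 1 lower and a median log2 fold change of 2.25, beside 25.7% and 20.9% of all tested genes.

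Of 12 intracellular partners, 4 were called higher and 2 lower, beside 25.7% and 20.9% of all tested genes, with a median log2 fold change of 0.25. These counts are near the shares of all genes, so they are no result about the partners as a group. The genes called higher were *Anxa1*, *Anxa2*, *Ahnak*, and *Myh9*, which encode the annexin partners of *S100a11* and *S100a10*, a giant scaffold that binds the latter complex, and the nonmuscle myosin heavy chain that S100A4 binds. *Anxa1* was counted 2526, 3467 and 2973 times in infarcts 1, 2 and 3 and 26, 24 and 18 times in contralateral cortices 1, 2 and 3. The log2 fold changes were 7.17 for *Anxa1*, 4.47 for *Anxa2*, 3.29 for *Ahnak* and 2.77 for *Myh9*, with adjusted *p* values from 1.43e-07 for *Anxa1* to 8.55e-07 for *Myh9* (edgeR). *Cacybp*, *Sugt1*, and *Anxa11*, the genes taken here as partners of *S100a6*, were not called. *Cacybp*, the gene of calcyclin-binding protein, had a log2 fold change of -0.58 (95% interval -0.96 to -0.19, adjusted *p* = 0.0136, edgeR), *Sugt1*, encoding a related co-chaperone, had one of -0.44, and *Anxa11* had one of 0.43 with an adjusted *p* of 0.193 (edgeR). Of the genes whose products form a release complex with S100A13, *Fgf1* had a log2 fold change of 0.03 (95% interval -0.37 to 0.44) and the synaptic vesicle gene *Syt1* one of -3.28 (adjusted *p* = 8.18e-05, edgeR), the latter called lower. Among partners of *S100a10*, the serotonin receptor gene *Htr1b* fell by 1.16 on the log2 scale (adjusted *p* = 0.00551, edgeR), while *Hltf*, a chromatin factor gene, had a log2 fold change of 0.86 and was not called. *Htr4* had 0, 4 and 70 counts in infarcts 1, 2 and 3, a spread that left its 95% interval at -2.72 to 2.85.

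**Figure D5:**
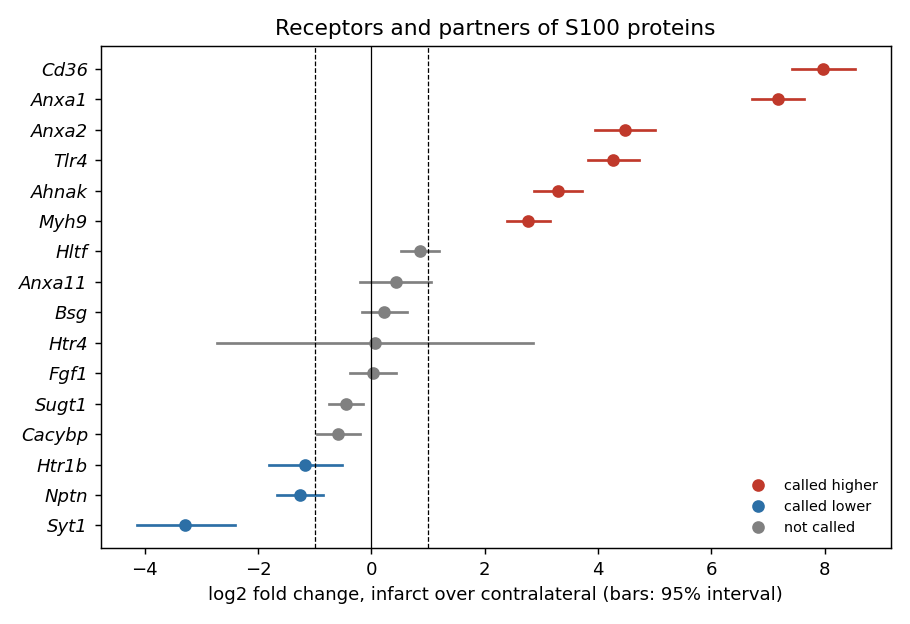
Fitted log2 fold change with its 95% interval for the 16 tested genes of S100 receptors and partners, with dashed lines at a 2-fold change. *Cd36* and *Anxa1* lie above 7, *Anxa2*, *Tlr4*, *Ahnak*, and *Myh9* between 2.77 and 4.47, and *Htr1b*, *Nptn*, and *Syt1* are called lower.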

How the data were processed

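Stranded mRNA libraries were sequenced from 3 infarcts and 3 contralateral cortices. Per the paper and the submitters' processing notes, the authors demultiplexed paired reads with bcl2fastq 2.19, trimmed them with Trimmomatic 0.32, aligned them to GRCm38 with STAR 2.5.2b and counted them with htseq-count. The deposited values are raw counts per Ensembl gene. The htseq-count annotation and strand setting are not given in the sources used here. The 5 entries that name no gene were left out, and genes held 71.8% to 73.4% of the total in infarcts and 65.7% to 68.0% in contralateral cortices. Short genes that share sequence or exons with others lose reads in such counting, and this is given with the genes concerned.

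Identifiers were matched to GENCODE M21 on GRCm38 (45229 of 46078). The count tables were fitted with edgeR 4.0.16 in R 4.3.3 (filterByExpr, TMM, robust quasi-likelihood fit with region as the only term), and the Benjamini-Hochberg adjustment was made over all 15554 tested genes. Standard errors were taken from the log2 fold change and the quasi-likelihood F. For a gene with 0 counts in all contralateral cortices the fold change is a lower bound at 3 counts per library, and with 1 to 3 counts in all it is a ratio with a Clopper-Pearson interval. Bounds and intervals cover counting error only. Alternatives were RLE, upper-quartile and total-count scaling, no filter, at least 10 counts in every library, DESeq2 1.42.0, limma 3.58.1 voom, glmTreat, no fold change threshold, a replicate block, each library left out, and the longest transcript as gene length. The procedure was tested on simulated data. Promoters came from RefSeq (GRCm38.p6). Protein sequences were not used here.

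The members and lists were chosen with earlier results of these data known. The text names all 10 members, the other S100 genes, S100 receptors and partners, the nearest genes of the S100 cluster and the 5 genes most correlated with *S100a8*, *S100a9*, and *S100b*, of which 1 is not reported here. Cell type markers, *Chtop*, *Tchh*, *Gm4202*, *Hltf*, *Htr1b*, *Htr4*, and *Sugt1* were named after their values were seen. Marker lists not described beside a gene (homeostatic microglia, endothelium, oligodendrocyte precursor, T cell, red blood cell, choroid plexus and Schwann cell) are given under the other observations. *S100a7l2*, *S100a15a*, and *S100p* were not matched and not analyzed here.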

Additional observations from a re-analysis of the deposited data

How the results depend on the processing

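The number of S100 members called higher was 7 or 8 under every alternative except a minimum of 10 counts in every library, which left 4 because the sparse members were then not tested. No member changed direction under any alternative run. *S100b* was called at a log2 fold change of 1.02 with library totals and 1.04 without infarct 1, and its changes without 1 library ranged from 0.60 to 1.04. Among the other S100 genes, 1 was called higher with library totals, 1 with no filter and 1 with voom (0 in the reported fit): *S100a7a* with library totals and voom, and *S100a14* with no filter. No receptor was called lower by glmTreat (0, from 1). Of the intracellular partners, 1 was called lower with library totals, 1 with glmTreat and 4 with no fold change threshold, and 1 to 3 with a library left out (1 without infarct 1). Of the other EF-hand genes, 3 were called higher with library totals, 4 with no fold change threshold and 1 to 3 with a library left out (3 without infarct 2). The causes of these shifts were not tested, apart from the fewer genes tested under the higher minimum.

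Deviations from the region means correlated at -0.19, 0.101 and 0.0011 between samples with the same replicate number. Between samples with different numbers the correlations ran from -0.238 to 0.178. With 3 libraries of each region this cannot show whether the numbers pair the samples. With a replicate block, 7 members were called higher and 0 lower, and 3945 genes were called higher and 3222 lower, against 3999 and 3256 without it. Depth limits *S100a4* and *S100a9*, and the contralateral level of *S100a8* and *S100a11*. With the longest transcript as the length, the levels of *S100a1*, *S100a6*, and *S100a10* took another order in contralateral cortices, and those of *S100a13* and *S100a8* in infarcts.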

Other observations

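Calcium sensors and buffers of the same EF-hand fold outside the S100 family were mostly lower in infarcts. Of 24 such genes, 15 were called lower and 1 higher, with a median log2 fold change of -2.02, where 20.9% of all tested genes were called lower. The genes called lower included the calcium buffers of neurons *Calb1* (log2 fold change -3.65), *Calb2* (-3.47), and *Pvalb* (-2.81), and the neuronal sensors *Vsnl1* (-3.51) and *Ncald* (-2.79). The gene called higher was *Capns1*, encoding the small subunit of calpain, with 17119, 16081 and 13965 counts in infarcts 1, 2 and 3 and 7282, 8629 and 3705 counts in contralateral cortices 1, 2 and 3. This was a log2 fold change of 1.45 (adjusted *p* = 3.76e-04, edgeR). *Sri*, encoding sorcin, had a log2 fold change of 0.94 and was not called. Summed over the 24 genes, the level was 3801 to 4441 CPM in infarcts and 9666 to 10648 CPM in contralateral cortices. All 8 neuronal markers were called lower in the same libraries, and their part in these levels was not tested. These examples were chosen after their values were seen.

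Marker lists of other cells that S100 genes are known from are described beside all tested genes, of which 25.7% were called higher and 20.9% lower. All 7 T cell markers were called higher, with a summed level of 107, 42.1 and 26.7 CPM in infarcts 1, 2 and 3 and 0.391 to 0.738 CPM in contralateral cortices. They passed the filter only through their infarct counts and so had to differ in that direction. Of the 7 homeostatic microglia markers 3 were called higher, of the 7 endothelial markers 3, and of the 7 oligodendrocyte precursor markers 1, with none lower. The precursor marker called was *Pdgfra*, which is also on the fibroblast list, and this count was below the share of all genes. Counts from lists this short are no result about these cells as groups. The 5 Schwann cell markers, cells that express *S100b* in nerves, summed to 209 to 249 CPM in infarcts and 38.1 to 42.1 CPM in contralateral cortices, with 1 of 3 tested called higher. Of the choroid plexus markers, 3 of 4 tested were called higher, while *Ttr* and *Kcne2* had at most 3 counts in any library. The 3 called, *Folr1*, *Aqp1*, and *Clic6*, passed the filter only through their infarct counts and so had to differ in that direction. The 5 red blood cell markers summed to 8.08 to 30.2 CPM in infarcts and 0.846 to 4.28 CPM in contralateral cortices, with both tested genes called higher. Of these, *Hba-a1* passed the filter only through its infarct counts.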
